A study of Mus musculus with 24 samples.

Results

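Cytosolic ribosomal protein genes encode the proteins that, together with ribosomal RNA, build the large (Rpl) and small (Rps) subunit of the ribosome in the cytoplasm. They are needed in nearly equal amounts, are expressed in every cell and are among the most abundant mRNAs. Their mRNAs typically start with a run of pyrimidines, the terminal oligopyrimidine motif, through which the kinase mTOR and the RNA-binding protein LARP1 adjust their translation and stability. MYC proteins, among them the neuroblastoma oncogene MYCN, are known activators of ribosome synthesis.

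The genes were taken by name: every row of the expression table whose gene name starts with Rpl or Rps followed by a digit, p or a, without the S6 kinases (Rps6k) and without names marked -ps, which denote processed copies. This gave 87 of 21833 protein-coding genes. Of the 79 established proteins of the cytosolic ribosome, 77 were among them. Fau, which encodes a ribosomal protein fused to a ubiquitin-like protein, was not taken because of its name. The remaining 10 genes are paralogues of ribosomal proteins (Rpl3l, Rpl7l1, Rpl10l, Rpl22l1, Rpl36al, Rpl39l, Rps27l and the retrogene-derived Rps27rt and Rps23rg1) and Rps19bp1, which matches by name and is a binding partner of RPS19, not a ribosomal protein.

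RNA-seq of poly(A) RNA was compared between 4 groups of mice on a C57Bl6/N background. AG were adrenal glands of mice labelled CRE - (n = 3). AGM were tumor-free adrenal glands of mice labelled MYCN +/-, CRE + (n = 5), taken at the end of a year of observation. TI were tumors of mice labelled IGF2BP1 +/+, CRE + (n = 7) or IGF2BP1 +/-, CRE + (n = 1), and TIM were tumors of mice labelled IMP1/MYCN, CRE + (n = 8), IMP1 being another name of the RNA-binding protein IGF2BP1. Both transgenes lie behind a loxP-flanked stop cassette at Rosa26 and are switched on by iCRE from the Dbh promoter, so in cells of the sympatho-adrenal lineage. The IGF2BP1 transgene lacks its 3′UTR. Each library was a separate sample by its label. The tumors lay mostly in the abdomen in TI and in the adrenal gland, abdomen or at the spine in TIM, so the gland was not the site of every tumor. Per the study, mice with tumors were culled when their condition required it. Double transgenic mice survived for a shorter time than homozygous IGF2BP1 mice. Age therefore differed between AGM, TI and TIM and cannot be told apart from group.

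Levels are FPKM, which count fragments relative to the length of the gene and to the depth of the library. Differences are log2 fold changes of FPKM + 1 from limma over all 24 libraries, given with their standard error. A gene was called at a Benjamini-Hochberg adjusted p (FDR) below 0.05 over the 10171 genes that reached 1 FPKM in 3 or more libraries. Libraries are named by group and a letter in column order, which stands for no sample number. The depth, as reads recovered from the values outside 126 genes above 1000 FPKM, was 12334076 to 23683176 per library. No ribosomal protein gene was among these 126 genes, which held 64.5% to 98.6% of all recovered reads of each AGM or TIM library but at most 2.21% elsewhere. The authors had corrected the counts for batch. Recovered reads, depth and shares of reads therefore describe corrected values and need not equal what was sequenced. Sequencing run and group cannot be told apart in AGM against AG and in TIM against AG. They are also largely tied in TIM against TI and in TI against AGM, since 6 of 8 TI libraries were sequenced in run 1, where no TIM or AGM library was. All 10 markers of adrenal cortex were found. Their summed level was 707 to 731 FPKM for AG and 4370 to 5468 for AGM, against 1.11 to 16.7 for TI and 1.79 to 13.1 for TIM. The summed level of 8 proliferation markers was 12.1 to 12.9 FPKM for AG and 5.10 to 6.99 for AGM, against 14.5 to 111 for TI and 2.36 to 64.4 for TIM. The part of these cell types in the differences below was not tested. In bulk tissue, fewer cells of a type and less RNA per cell cannot be told apart.

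The 5 sequences below show 30 bases of the sense strand near the annotated transcript start (GENCODE M39, GRCm39) of genes that the results turn on, with 1 run of at least 8 C or T in capitals (a further run may follow in lower case). They lie at chr12:28685909-28685938 on the minus strand (Rps7), chr1:39406979-39407008 on the plus strand (Rpl31), chr4:152410136-152410165 on the plus strand (Rpl22), chr3:90120936-90120965 on the minus strand (Rps27) and chr9:66853338-66853367 on the plus strand (Rps27l).
Rps7: tgtccccaCCTCTTTTCTTCCgccacccgg
Rpl31: ccctcgcgCCCTTCCTTTCCTacttgggcc
Rpl22: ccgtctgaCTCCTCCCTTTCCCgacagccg
Rps27: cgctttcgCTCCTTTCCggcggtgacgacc
Rps27l: cgcctccaCTCCTCTCCactcctccccgcc

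Rps7 and Rpl31 were higher in tumors than in AG, Rpl22 and Rps27 were not called between tumors and AG, and Rps27l was lower. No such run was found near the start of Rpl3 and Rpl19, which were higher in both tumor groups than in AG, or of Rplp0, Rpl22l1 and Rps19bp1. Within 40 bases on either side of the annotated start, such a run on the sense strand was found in 39 of 80 ribosomal protein genes (48.8%) and in 2872 of 10160 tested genes with a position (28.3%). The MYC binding motif CACGTG, which reads the same on both strands, was found from 250 bases before to 50 after the start in 11 of 80 genes (13.8%) and in 10.2% of the tested genes. The printed runs began 22 (Rps7), -23 (Rpl31), -6 (Rpl22), 20 (Rps27) and 6 (Rps27l) bases from the annotated start, so none began at it. Annotated starts can be off by some bases, and a match is no evidence of use. Likewise, a missing run is no evidence that an mRNA lacks the terminal oligopyrimidine motif.

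Of the 87 genes, 7 stayed below the filter: Rps23rg1, Rpl10l, Rpl36al, Rpl24, Rpl39l, Rpl3l and Rps10. The other 80 were tested. Per length, Rplp1, an acidic stalk protein that recruits elongation factors, was the highest in AG at 296 ± 6.68 FPKM (SD, n = 3) and in AGM at 233 ± 39.4 (SD, n = 5). In TI the highest mean was that of Rps15 (332 FPKM) with Rplp1 at position 6, and in TIM that of Rpl32 (380 FPKM) with Rplp1 at position 5. No value of a ribosomal protein gene exceeded 831.7 FPKM. Rpl24 and Rps10, both core ribosomal proteins, were listed at only 4 to 29 and 52 to 331 recovered reads per library. For 62 of the 87 genes the annotation names at least 1 processed pseudogene, with up to 24 for Rpl31, and how reads were split between a gene and its copies is not given in the sources used here. The order of levels between genes therefore carries that uncertainty. Each gene is compared with itself between groups, and whether the split of reads differed between groups was not tested.

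Against control glands, ribosomal protein genes were more often higher than lower in tumors. In TI against AG, 33 of 80 were higher and 2 lower, beside 24.6% higher and 27.7% lower of all 10171 genes. The median log2 fold change of the 80 genes was 0.61, that of all genes 0.00, and 75 of 80 values were above 0. The split was alike in both subunits, with 21 of 47 Rpl genes and 12 of 33 Rps genes higher and medians of 0.63 and 0.58. The count depended on single control libraries: 14 genes were higher without AG-a, 19 without AG-b and 13 without AG-c. Without TI-h it rose to 49, and without TI-g it fell to 23. When only AG and TI set the spread, 22 were higher and 1 lower. For this and the other contrasts, the share of all genes called was counted in the main fit only. Whether the family exceeded all genes under these alternatives therefore cannot be read from the counts. Full separation from AG was not more frequent than among all genes. Above every AG library in every TI library lay 15 of 80 genes, a smaller share than the 23.8% of all genes. Below lay 2, where 27.3% of all genes did.

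In TIM against AG, 26 of 80 were higher and 2 lower, beside 22.5% and 28.5% of all genes. The median was 0.56, and again 75 of 80 values were above 0. By subunit, 18 of 47 Rpl genes were higher and 0 lower, and 8 of 33 Rps genes were higher and 2 lower. The medians were 0.57 and 0.47. The share of higher Rps genes was thus near that of all genes in TIM. Without AG-a 15 were higher, without AG-b 17 and without AG-c 13. With FPKM rescaled outside the genes above 1000 FPKM, 13 were higher and 3 lower, the median was 0.43 and that of all genes -0.15. The share of all genes called was not counted under these alternatives either. In TIM, 36 of 80 genes lay above every AG library in each tumor, where 17.8% of all genes did, and 2 lay below, where 24.7% did. TI and TIM were both set against the same 3 AG libraries. The plot of fold changes shows all 80 genes in both contrasts.

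**Figure D1:**
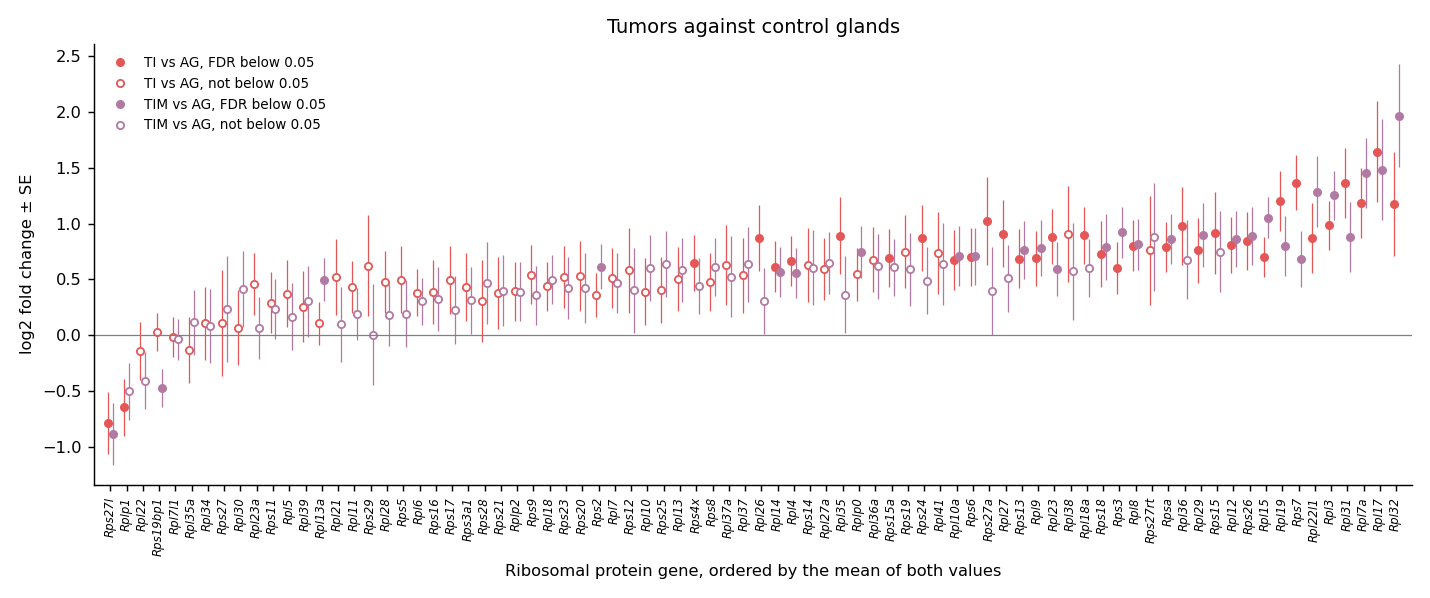
Log2 fold change (vertical axis, with standard error) of each of the 80 tested ribosomal protein genes in TI (n = 8) and TIM (n = 8) tumors against AG (n = 3), ordered by the mean of both; filled points have an FDR below 0.05. In each contrast 75 of 80 points lie above 0, and Rps27l and Rplp1 stand at the low end.

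Among genes of the large subunit, Rpl32 had 74.7, 77.6 and 72.1 FPKM in the 3 AG libraries. It ranged from 112 to 247 FPKM in TI (median 158) and from 104 to 832 in TIM (median 287). All 16 tumors were above all 8 glands. TI exceeded AG by 1.18 ± 0.46 (limma FDR = 0.037), whereas TIM exceeded it by 1.97 ± 0.46 (limma FDR = 0.0011), the former call lost without any 1 of the AG libraries or without TI-c, TI-d or TI-g, or with no filter. Within TIM the values split widely: TIM-c had 832 FPKM and TIM-h 780, whereas TIM-b had 104 and TIM-a 125.

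Rpl17, a protein near the exit of the peptide tunnel, had the largest fold change of the 80 genes in TI. It was listed at 8.996, 8.955 and 4.963 FPKM in AG, 10.97 to 47.1 in TI (median 26.0) and 12.2 to 77.5 in TIM (median 20.7). TI was higher by 1.64 ± 0.45 (limma FDR = 0.0040), and TIM was so by 1.48 ± 0.45 (limma FDR = 0.0088), the latter call lost without AG-c. The 5 AGM glands, at 17.5 to 22.0 FPKM, lay above all AG glands too, and the tumors did not pass the test against AGM (0.37 ± 0.38 in TI and 0.21 ± 0.38 in TIM).

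Rpl3, which lies near the peptidyl transferase center, had 38.0, 37.8 and 35.2 FPKM in AG, 49.6 to 117 in TI (median 77.7) and 76.0 to 127 in TIM (median 85.3). No tumor overlapped with AG, and TI was higher by 0.98 ± 0.22 (limma FDR = 0.00063), TIM by 1.25 ± 0.22 (limma FDR = 4.8e-05). Rpl7a had 17.5, 14.1 and 14.6 FPKM in AG, 17.2 to 49.0 in TI (median 39.1) and 28.7 to 103 in TIM (median 38.8), with fold changes of 1.18 ± 0.31 and 1.45 ± 0.31. Only the lowest TI tumor overlapped with AG for this gene. Rpl31, Rpl19 and Rpl15 followed the same direction: Rpl31 rose by 1.36 ± 0.31 in TI and 0.88 ± 0.31 in TIM, Rpl19 by 1.20 ± 0.27 and 0.80 ± 0.27, and Rpl15 by 0.70 ± 0.18 and 1.05 ± 0.18.

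Some genes of the small subunit rose as well. Rps7, which binds MDM2 when free of the ribosome, had 35.8, 34.2 and 34.3 FPKM in AG, 55.0 to 131 in TI (median 98.6) and 42.4 to 98.4 in TIM (median 56.3). Every tumor was above every gland, and relative to AG the fold change was 1.37 ± 0.25 for TI (limma FDR = 7.7e-05), against 0.68 ± 0.25 for TIM (limma FDR = 0.026). Rpsa, the laminin receptor and a protein of the small subunit, had 47.9, 50.8 and 50.1 FPKM in AG, 52.1 to 120 in TI and 73.4 to 128 in TIM, so TI rose by 0.79 ± 0.22 (limma FDR = 0.0050), TIM by 0.86 ± 0.22 (limma FDR = 0.0027). Rps6, the substrate of the S6 kinases, had 58.2, 59.5 and 55.6 FPKM in AG, 58.0 to 149 in TI, and 73.4 to 154 in TIM tumors. The fold changes of 0.70 ± 0.26 and 0.71 ± 0.26 had FDRs of 0.026 and 0.027 in limma, and both calls were lost without any 1 of the AG libraries, that of TI also when only these 2 groups set the spread and that of TIM with rescaled FPKM. Rps27a, which is made as a fusion to ubiquitin, had 18.1, 25.3 and 15.1 FPKM in AG, 13.8 to 72.7 in TI and 11.9 to 50.4 in TIM. It was higher in TI (1.02 ± 0.39, limma FDR = 0.033, lost without AG-a, AG-c, TI-b or TI-g) and was not called in TIM (0.40 ± 0.39).

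Not all well known members were called. Rpl5 and Rpl11, which with 5S RNA bind MDM2 when ribosome assembly fails, differed from AG by 0.37 ± 0.30 and 0.43 ± 0.23 in TI and by 0.16 ± 0.30 and 0.19 ± 0.23 in TIM. Rps19 and Rps14, whose reduced dose is linked to anemia in people, differed by 0.75 ± 0.32 and 0.63 ± 0.33 in TI and by 0.59 ± 0.32 and 0.61 ± 0.33 in TIM, again not called. Of the 80 genes, 18 were called in none of the 6 contrasts, among them Rpl10, Rpl39, Rplp2, Rps14 and Rps27.

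The 3 stalk genes diverged. Rplp0, the base of the stalk and a common reference gene in RT-qPCR, had 130, 135 and 130 FPKM in AG, 122 to 269 in TI (median 220) and 157 to 346 in TIM (median 224). Every TIM tumor was above every AG and AGM gland, and TIM was higher than AG by 0.74 ± 0.24 (limma FDR = 0.011), a call lost under the rescaled FPKM. The TI value of 0.54 ± 0.24 was not called (limma FDR = 0.057). Rplp1 went the other way, from 296, 302 and 289 FPKM in AG to 95.3 to 279.4 in TI (median 220) and 168 to 276 in TIM (median 205). Every tumor was below every AG library. It fell by 0.65 ± 0.26 on the log2 scale in TI (limma FDR = 0.038), and this call was lost without any 1 AG library, without TI-a, TI-e or TI-h, and under 4 of the other settings. The TIM value of -0.50 ± 0.26 was not called (limma FDR = 0.11). Rplp2 was not called in either (0.39 ± 0.26 in both).

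Rps27l, a p53-responsive paralogue of Rps27, was lower in both tumor groups than in AG. It had 29.8, 36.2 and 34.8 FPKM in AG, 13.0 to 26.4 in TI (median 19.8) and 11.01 to 39.2 in TIM (median 16.0). All TI tumors and all TIM tumors but TIM-h (39.2 FPKM) lay below AG. It fell by 0.79 ± 0.28 in TI (limma FDR = 0.020, lost without AG-b or AG-c and with medians set equal) and by 0.88 ± 0.28 in TIM (limma FDR = 0.011). Rps27 itself did not move past the test (0.11 ± 0.48 and 0.23 ± 0.48), and the mean of Rps27l was 67.3% of that of Rps27 for AG, 36.3% for AGM, 31.3% for TI and 27.8% for TIM. The AGM glands had 17.9 to 31.7 FPKM of Rps27l, and neither tumor group was called against them (-0.33 ± 0.23 for TI, limma FDR = 0.21, and -0.42 ± 0.23 for TIM, limma FDR = 0.11). The retrogene Rps27rt was not called in any contrast and shares most of its sequence with Rps27.

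Rpl22l1, a paralogue of Rpl22, was higher in both tumor groups than in AG, and Rpl22 was not called in these contrasts. It had 2.56, 2.41 and 2.34 FPKM in AG, whereas AGM glands had 2.99 to 6.06. TI tumors had 2.74 to 11.6 FPKM (median 4.54), and TIM tumors 4.35 to 13.7 (median 6.62). All tumors were above AG, TI by 0.87 ± 0.32 (limma FDR = 0.024, lost without any 1 AG library or when only these 2 groups set the spread) and TIM by 1.28 ± 0.32 (limma FDR = 0.0017). Against AGM, TI was not called (0.23 ± 0.27, limma FDR = 0.45), and the TIM call (0.64 ± 0.27, limma FDR = 0.039) was lost in 9 of 31 alternatives, 7 of which left out AGM-a, AGM-b, AGM-d, AGM-e, TIM-b, TIM-d or TIM-h. Rpl22 had 24.96, 26.1 and 24.3 FPKM in AG, 13.0 to 19.5 FPKM for AGM, then 15.7 to 38.9 for TI and 10.7 to 29.8 for TIM. Its fold changes to AG were -0.14 ± 0.26 for TI and -0.41 ± 0.26 for TIM. The mean of Rpl22l1 was thus 9.70% of that of Rpl22 for AG, 28.8% for AGM, 24.9% for TI and 39.8% for TIM.

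The other paralogues were low or not called, with 1 exception. Rpl7l1, an assembly factor related to Rpl7, had means of 4.17 FPKM for AG, 4.62 for AGM, 4.20 for TI and 4.19 for TIM. Rpl3l, the muscle form of Rpl3, had 0 to 3 recovered reads in the 8 glands, 2 to 16 in TI and 0 to 70 in TIM. Relative to library depth (RPM, reads per 1000000), AG glands averaged 0.0760 ± 0.0659 (SD, n = 3) and AGM glands 0.0933 ± 0.0584 (SD, n = 5). TI tumors averaged 0.438 ± 0.231 RPM and TIM tumors 1.02 ± 1.30 (SD, n = 8 each). In an exact two-sided permutation test of mean RPM, adjusted over the 6 contrasts of the gene, Rpl3l was higher in TI than in AGM (adjusted p = 0.047; 7 of 8 tumors above every AGM gland), a call lost when FPKM replaced RPM; the other contrasts were not past 0.05, and TI against AG had an adjusted p of 0.11 in the exact test with 8 of 8 tumors above every AG gland. The summed level of 6 skeletal muscle markers was 0.962 to 2.78 FPKM for AG, 0.0552 to 0.124 for AGM, 0.149 to 4.34 for TI and 0.102 to 13.2 for TIM, and its part in the Rpl3l values was not tested. Rpl36al had 9 to 75 reads in any library with no contrast past the test, Rpl39l had 0 to 5 reads, and Rpl10l, a testis-specific paralogue, had 0 reads in every library.

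**Figure D2:**
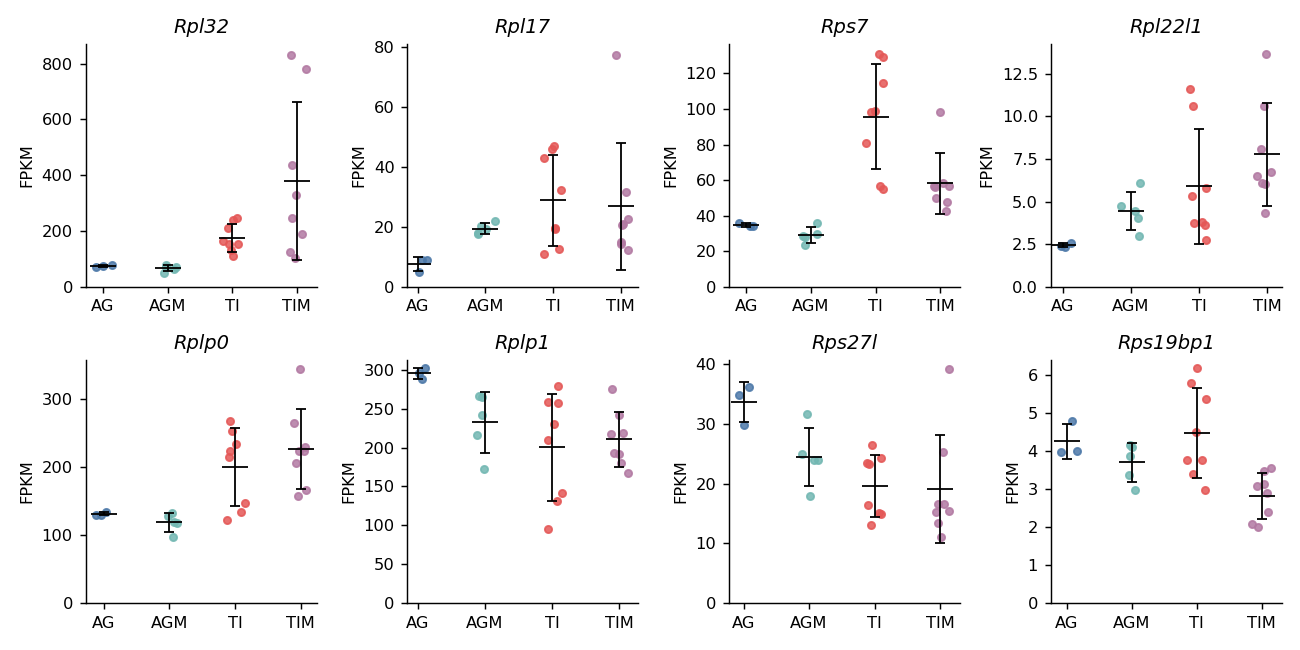
FPKM (vertical axes from 0) of 8 genes in every library of AG (n = 3), AGM (n = 5), TI (n = 8) and TIM (n = 8); points are libraries, bars the mean and SD. Rpl32, Rpl17, Rps7 and Rpl22l1 are higher in tumors than in AG, whereas Rplp1 and Rps27l are lower in most or all tumors and Rps19bp1 is lower in TIM than in AG.

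MYCN without tumors went with no call in this gene family. In AGM against AG, 0 of 80 genes were called by limma, beside 14.6% higher and 14% lower of all genes, and 4 had an unadjusted p below 0.05. The median was -0.10, with 33 values above 0 and 47 below. Limma-voom on recovered reads called 2 higher, with a median of 0.03 against 0.11 for all genes. The count rested on how the spread and the scale were set: with only AG and AGM setting the spread, 6 were higher and 12 lower, and with FPKM rescaled outside the genes above 1000 FPKM, 17 were lower and 0 higher, with a median of -0.58 against -0.41 for all genes. Calls over all genes were not counted under these settings. Without overlap between the groups were 6 genes higher and 14 lower in AGM, where 29.4% and 32.5% of all genes were. Among genes with an unadjusted p below 0.05, Rpl17 had 17.5 to 22.0 FPKM in AGM against 4.963 to 8.996 in AG (1.27 ± 0.49, limma FDR = 0.054) and Rps27a 7.23 to 12.5 against 15.1 to 25.3 (-0.95 ± 0.42, limma FDR = 0.098).

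Against AGM, more ribosomal protein genes were higher in tumors. In TI 52 of 80 were higher and 0 lower, beside 36.2% higher and 36.2% lower of all genes, with a median of 0.64. In TIM 48 of 80 were higher and 0 lower, beside 31.9% and 33.4%, with a median of 0.60. Leaving out 1 AGM library left 42 to 54 and 34 to 48 higher. Without overlap, 8 genes were higher and 0 lower in TI than in AGM, both smaller shares than the 25.4% and 26.8% of all genes. In TIM 29 were higher and 0 lower without overlap, where 14.5% and 20.8% of all genes were. With rescaled FPKM 69 and 65 were higher, but the median of all genes then stood at 0.40 and 0.31. The largest difference was that of Rps27a in TI, where 8 tumors with 13.8 to 72.7 FPKM stood above 5 glands with 7.23 to 12.5 (1.97 ± 0.33, limma FDR = 1.6e-05). In TIM it was that of Rpl32 with 2.17 ± 0.39 (limma FDR = 4.9e-05). Rpl5 and Rpl11 were called here, by 0.88 ± 0.25 and 0.76 ± 0.20 in TI and by 0.67 ± 0.25 and 0.51 ± 0.20 in TIM (the TIM call of Rpl5 lost without AGM-e, when only these 2 groups set the spread and with limma-voom, that of Rpl11 lost without AGM-b and with limma-voom). So were Rps7 (1.63 ± 0.21 and 0.95 ± 0.21), Rpl4 (1.14 ± 0.19 and 1.02 ± 0.19) and Rpl29 (0.92 ± 0.24 and 1.06 ± 0.24).

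Single tumors differed as much as the groups. The mean of log2(FPKM + 1) over the 80 genes was 5.13 to 5.25 for AG glands and 4.83 to 5.38 for AGM glands, but 4.94 to 6.34 for TI (median 5.95) and 5.37 to 6.502 for TIM (median 5.53). TI-h, TI-a and TI-e were the lowest TI tumors, at 4.94, 5.24 and 5.50, and TI-g the highest at 6.34. In TIM, 6 tumors lay between 5.37 and 5.70, TIM-d at 6.05 and TIM-h at 6.502. Of the 80 genes, the number above the median of TI was 80 in TI-g, 70 in TI-d, 65 in TI-b, 50 in TI-c and 48 in TI-f, but 3 in TI-a, 3 in TI-e and 1 in TI-h. The number above the median of TIM was 80 in TIM-h, 76 in TIM-d and 59 in TIM-c, then 33 in TIM-e, 28 in TIM-f, 23 in TIM-b, 16 in TIM-g and 5 in TIM-a. Of all tested genes, 41.6% (TI-g) to 54.7% (TI-h) were above the median of TI and 41.9% (TIM-h) to 55.9% (TIM-b) above that of TIM. These counts follow in part from the mean of the same genes. TI-h had 54 genes below every AG library and 18 above, TIM-h 2 below and 78 above.

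**Figure D3:**
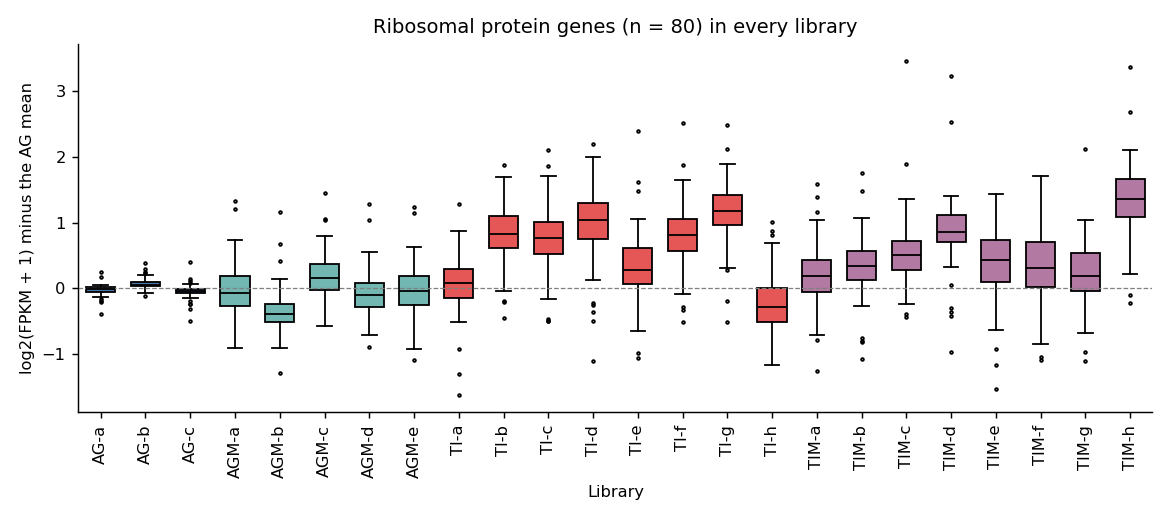
Log2(FPKM + 1) of the 80 ribosomal protein genes minus their AG mean (vertical axis) in each of the 24 libraries; boxes show quartiles and median, whiskers 1.5 times the box, dots single genes. The median was -0.29 in TI-h, 0.08 in TI-a, 1.18 in TI-g and 1.36 in TIM-h, and the AG boxes are narrow.

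As a share of reads outside the genes above 1000 FPKM, the 87 genes took 3.59% to 3.93% for AG, 2.16% to 3.42% for AGM, 3.58% to 8.75% for TI and 3.96% to 10.1% for TIM. The highest tumors in each group, TI-g and TIM-h, had 12334076 and 14531715 recovered reads, the lowest numbers of their groups. TI-h, the tumor with the lowest share in TI, had 15295023. The part of depth in these values was not tested. Other genes no longer than the median ribosomal protein gene differed from AG by a median of -0.01 in TI-g, 0.11 in TIM-h and -0.15 in TI-h. In AGM-e their median was 0.38, where that of the ribosomal protein genes was -0.04, and in TI-a it was -0.16 against 0.08. The part of gene length was not tested. The proliferation markers gave a mean log2(FPKM + 1) of 3.002 in TI-g and 2.66 in TI-h, but 1.36 in TI-d, which was the second highest TI tumor for ribosomal proteins. In TIM the mean ranged from 0.33 in TIM-e to 3.01 in TIM-c. Mycn had 3.47 FPKM in TI-g and 12.8 in TI-h, and 1.20 in TIM-h, the lowest of TIM. The highest tumors for ribosomal proteins, TI-g and TIM-h, were therefore not those with the most Mycn mRNA, TI-e (15.6 FPKM) and TIM-c (4.38 FPKM). Other tumors went the other way. TIM-a, the lowest of TIM for ribosomal proteins, had only 1.65 FPKM of Mycn. TI-c had 14.7 FPKM of Mycn, and its ribosomal protein genes lay above AG by a median of 0.77. A relation between Mycn and ribosomal protein mRNA across all tumors was not tested. Mycn in this table is the mouse gene and need not count a transgene.

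TIM and TI were close to each other. Of 80 genes, 1 was higher and 2 lower in TIM, beside 10% higher and 12.9% lower of all genes, with a median of -0.05. The mean of log2(FPKM + 1) over the genes was 5.76 ± 0.48 in TI and 5.70 ± 0.39 in TIM (SD, n = 8 each). The count moved with single tumors: without TI-h 7 genes were lower and 0 higher, and without TIM-h 6 were lower and 0 higher. With any 1 AG library left out, 2 were lower and 0 higher. No gene separated the groups without overlap, where 0.767% of all genes did as higher and 0.787% as lower.

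Rps7, with TI at 55.0 to 131 FPKM and TIM at 42.4 to 98.4, was lower in TIM by 0.68 ± 0.18 on the log2 scale (limma FDR = 0.011), a call that held in all 31 alternatives. In TIM 7 of 8 tumors had 42.4 to 58.2 FPKM and only TIM-h more. Rps7 lies on chromosome 12, where 169 of 343 tested genes were called lower in TIM and 9 higher. Of all genes, 12.9% were lower and 10% higher. Rps19bp1, a regulator of SIRT1 that binds RPS19, had 2.97 to 6.18 FPKM in TI and 2.01 to 3.56 in TIM, a fall by 0.50 ± 0.12 (limma FDR = 0.0065) that also held in all 31. None of these alternatives separates run from group. Rpl13a, which has a role in translational silencing outside the ribosome, had 2.39 to 5.95 FPKM in TI and 4.33 to 9.07 in TIM (0.39 ± 0.14, limma FDR = 0.048). That call was lost in 21 of 31 alternatives, 17 of which left out 1 library of any group (AG-a, AG-b, AG-c, AGM-a, AGM-b, AGM-d, AGM-e, TI-a, TI-b, TI-c, TI-e, TI-f, TI-h, TIM-b, TIM-d, TIM-g or TIM-h). Rpl32 was not called between tumor groups (0.79 ± 0.34, limma FDR = 0.097).

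All 7 members on chromosome 11 (Rpl19, Rpl23, Rpl23a, Rpl26, Rpl27, Rpl38 and Rps27a, most of them named here after their values were seen) were lower in TIM than in TI, by 0.29 to 0.63 on the log2 scale, with a median of -0.40 and none called. The median of all 928 tested genes on chromosome 11 was -0.17. Both tested members on chromosome 12, Rps7 at chr12:28677933-28686292 and Rps29, were lower too, with a median of -0.65 beside -0.34 for the 343 tested genes of that chromosome, which also carries Mycn. Chromosome 6 held 1 tested member, Rpl32, higher by 0.79, beside a median of 0.19 for its 516 genes. The 71 members on other chromosomes than 11 and 12 had a median of -0.02. Against AG, the chromosome 11 members had a median of 0.91 in TI and 0.51 in TIM, and those outside chromosomes 11 and 12 had 0.54 and 0.56, so the rise over AG was present outside these chromosomes in both groups. Genes of a chromosome are not independent replicates, and the part of chromosome number in these values was not tested.

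**Figure D4:**
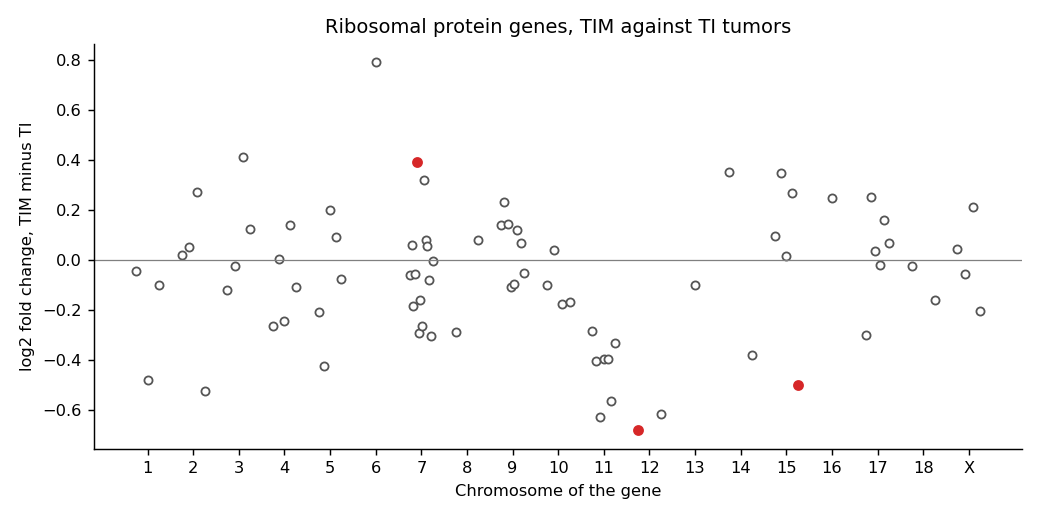
Log2 fold change of TIM against TI (vertical axis, TIM minus TI) for the 80 tested ribosomal protein genes by the chromosome they lie on; filled points have an FDR below 0.05. All 7 points of chromosome 11 and both of chromosome 12 lie below 0, and the point of chromosome 6 is Rpl32.

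Genes that work with the ribosome were counted from lists in the same fit. Rack1, a scaffold on the small subunit, had 21.4 to 22.2 FPKM in AG, 23.0 to 56.2 in TI and 35.3 to 70.5 in TIM and was higher in both (0.82 ± 0.22 and 0.998 ± 0.22). Fau was not called (0.67 ± 0.30 and 0.59 ± 0.30). Of 8 genes listed with the elongation factors, 5 were higher and 0 lower in TI, and 6 were higher and 2 lower in TIM. Of all genes, 24.6% were higher and 27.7% lower in TI, and 22.5% and 28.5% in TIM. The list also holds Eef2k, the kinase of eEF2, and Eef1e1, which are not elongation factors themselves. Eef2, which moves the ribosome along the mRNA, had 149 ± 1.54 FPKM in AG (SD, n = 3), and it rose to 284 ± 91.6 in TI and to 309 ± 60.4 in TIM (SD, n = 8 each). Eef1a2, the form of eEF1A found in neurons and muscle, went from 3.25 to 4.71 FPKM in AG to 53.6 to 218 in TI and 40.9 to 329 in TIM, and the calls held in all alternatives. Eef1a1 had 311 to 320 FPKM in AG, 326 to 671 in TI and 382 to 649 in TIM, and its calls were lost in 13 and 7 of 31 alternatives, among them any 1 AG library left out.

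Factors that make ribosomes were counted the same way. Against AG, 24.6% of all genes were higher and 27.7% lower in TI, and 22.5% and 28.5% in TIM. Of 71 ribosome assembly genes, 12 were higher and 9 lower in TI and 13 higher and 10 lower in TIM against AG, with medians of 0.00 and 0.10. Of 36 initiation factors, 8 were higher and 2 lower in TI and 6 higher and 3 lower in TIM. Of 15 genes of RNA polymerase I transcription, 2 and 1 were higher and 1 and 2 lower. Npm1, a nucleolar chaperone, was higher in both (1.01 ± 0.37 in TI, lost without any 1 AG library, and 1.25 ± 0.37 in TIM), whereas Ncl (0.63 ± 0.34 and 0.32 ± 0.34) and Fbl (0.32 ± 0.22 and 0.19 ± 0.22) were not called. In AGM against AG, 16 of 71 assembly genes were lower and 1 higher and 11 of 36 initiation factors were lower and 0 higher, beside 14% lower of all genes. In the same fit 0 of the ribosomal protein genes were called. That count changed with the spread and the scale, as given above, and the lists were not counted under those settings.

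Ribosomal proteins of mitochondria are encoded in the nucleus as well. Of 76 tested genes (Mrpl and Mrps), 5 were higher and 24 lower in TI and 3 higher and 24 lower in TIM, with medians of -0.15 and -0.12. Their share of lower calls was near that of all genes (27.7% and 28.5%) and their share of higher calls below it. The plot of called genes by list shows both kinds of ribosomal protein.

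**Figure D5:**
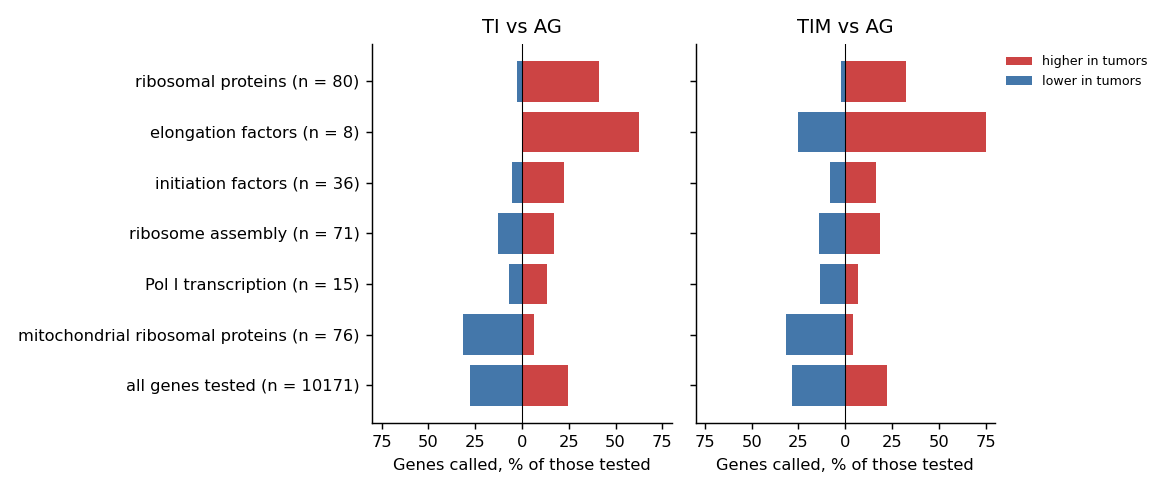
Share of tested genes called higher (right) or lower (left) in TI and TIM against AG, in percent (horizontal axis), for the ribosomal protein genes, 5 related lists and all genes tested. The list of elongation factors also holds Eef2k and Eef1e1, which are not elongation factors themselves. Of 80 ribosomal protein genes 33 and 26 were higher and 2 in each were lower. Of 76 mitochondrial ribosomal protein genes 24 were lower in each, a share near that of all genes (27.7% and 28.5%).

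Among 17 genes that control pyrimidine-tract mRNAs or the S6 kinase pathway, 3 were higher and 2 lower in TI, and 0 were higher and 2 lower in TIM. The shares of all genes were 24.6% higher and 27.7% lower in TI, and 22.5% and 28.5% in TIM. Larp1 (0.13 ± 0.27 and -0.04 ± 0.27) and Mtor (-0.35 ± 0.15 and -0.31 ± 0.15) were not called against AG. Eif4ebp1, the repressor of cap-dependent translation, had 1.33 to 2.95 FPKM in AG, 0.18 to 0.97 in TI and 1.25 to 5.00 in TIM. It was lower in TI (-1.05 ± 0.26) and not called in TIM (0.26 ± 0.26), and TIM exceeded TI by 1.32 ± 0.19 (limma FDR = 8.3e-05). Rps6kb1, the S6 kinase, was lower in TIM than in TI by 0.39 ± 0.10 (limma FDR = 0.0069). Mycn mRNA had 0.56 to 0.82 FPKM for AG, 0.56 to 1.19 for AGM, 1.57 to 15.6 for TI and 1.20 to 4.38 for TIM, whereas Myc fell from 4.32 to 4.58 FPKM in AG to 0.40 to 1.74 in TI and 0.15 to 1.13 in TIM. Mycn was higher in both tumor groups (2.30 ± 0.41 and 1.15 ± 0.41, the latter lost without AG-a or AG-b) and Myc lower in both (-1.53 ± 0.19 and -1.95 ± 0.19).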

How the data were processed

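RNA was measured in 24 libraries (AG 3, AGM 5, TI 8, TIM 8). Per the labels' processing notes and the study's methods, the authors used cutadapt 2.8, HISAT2 2.1.0, SAMtools 1.10, featureCounts 2.0.0 and edgeR 3.40 on mm39; they corrected counts for batch with ComBat-seq, scaled them by TMM and deposited FPKM values for 21833 protein-coding genes. The annotation release is not given in the sources used here. The 9 log2 fold change, p-value and FDR columns of the authors' comparisons were not used. How batch correction moved single genes was not tested.

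In the deposited FPKM, values divided by the worth of 1 read gave whole reads for 100% of entries (tolerance 0.05 of a read). After the authors' batch correction, these recovered reads need not equal the reads sequenced. Columns carry no sample number, so each was assigned to a group only. Per the labels, AG was sequenced in run 1 and AGM in run 2, TI in runs 1 (6), 2 (1) and 3 (1), and TIM in runs 2 (3) and 3 (5). P-values measure the spread between these samples.

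Limma 3.58.1 (R 4.3.3; lmFit, eBayes with trend, group means only) was run on log2(FPKM + 1), which understates changes of low genes. Paralogues below the filter were compared as RPM by exact permutation. Both were tested on simulated data; for TI vs AG on 10171 genes, 75% of genes changed by 1 and 99% of those changed by 2 on the log2 scale were recovered, and 6.45% of calls were false (3.85% to 8.29% over the 6 contrasts). Whether these rates of limma hold where the spread differs between groups, or where genes of a library move together, was not tested. Alternatives were another pseudocount (0.1), 2 filters, the spread of 2 groups, 2 scalings, limma-voom on recovered reads and leaving out single libraries. In the main fit, counts over a list were read beside those over all genes.

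The members and lists were chosen with earlier results of these data known. In the table the hyphen of names is written as a dot; 7 names with -ps were left out of 94 matches. Named were the paralogue pairs, the stalk genes, Rpsa, Rps6, Rpl5, Rpl11, Rps27a, Rps14, Rps19, the 6 highest and 6 lowest called members per contrast, genes at 0 in a library, and a panel from Fau to Myc. Rps15, Rps2, Rps29, the other chromosome 11 members, Rpl24, Rps10 and Rps23rg1 were named after their values were seen. Sequences and positions are from GENCODE M39 on GRCm39 (all 87 members matched). One gene of the panel is not reported here.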

Additional observations from a re-analysis of the deposited data

Results flagged for a closer look

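Named genes and the mean level of the tested members were checked in AGM (5 libraries), TI (8) and TIM (8), in 108 combinations. By Dixon's test, 13 had 1 library far from the others, none of them a mean level, and chance flags about 1 in 20. TIM-h gave 10 of them, each its group's highest: Rps6 153.8 FPKM, Rpl7a 103.4, Rpl19 297.1, Rps7 98.37, Rpl15 97, Rps24 54.06, Rpl35 172.7, Rps27rt 81.87, Rpl7l1 7.444 and Rps14 204.6. These 10 are not separate events, since 80 members lay above the TIM median in TIM-h. Rpl17 stood at 77.51 FPKM in TIM-d. In AGM-c, Rps4x stood at 67.34 and Rps24 at 17 FPKM, above the other 4 AGM glands.

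TIM and TI differed by limma in Rps7 (-0.68, FDR = 0.011), Rps19bp1 (-0.50, FDR = 0.0065) and Rpl13a (0.39, FDR = 0.048), log2 of TIM minus TI. These are the 3 genes of 80 whose difference between the tumor groups passed the test.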

How the results depend on the processing

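No paired analysis was possible because the columns carry no replicate numbers. Of 110 results for named genes, 80 kept their side of the threshold in all alternatives, 30 lost the call in at least 1 and 0 reversed. When only the 2 groups compared set the spread, 23 members were called in TI against AG (35 in all) and 18 in AGM against AG (0). With FPKM rescaled outside genes above 1000 FPKM, 16 were called in TIM against AG (28), 13 higher and 3 lower in place of 26 and 2, and 17 in AGM against AG, all lower, and the mean level of AGM minus AG moved to -0.53. AGM against AG gave 1 call with pseudocount 0.1 and 2 with limma-voom. Rpl3l in TI against AGM differed by 0.0314 in FPKM, no longer past the exact test. The cause was not tested.

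Leaving out single libraries gave 13 to 50 calls in TI against AG, 14 to 35 in TIM against AG, 0 to 2 in AGM against AG, 2 to 7 in TIM against TI, 35 to 55 in TIM against AGM and 42 to 61 in TI against AGM. Calls over all genes were not counted in these alternatives. Leaving out TI and TIM libraries, and counting the -ps copies as members (which moved no count by over 1.5 times), were chosen after seeing the data. With 3 AG libraries, their number limits the precision of every contrast with AG.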
